A study of Mus musculus with 24 samples.

Results

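Open chromatin was described at 7 mouse genes of myoblast fusion and adhesion: the fusogens Mymk and Mymx, the cadherins Cdh15 and Cdh2, and the immunoglobulin-family receptors Ncam1, Jam2 and Jam3. Peaks of all 24 libraries were merged, merged regions were kept if 2 or more libraries called them, and those overlapping each gene body plus 10 kb on each side made up its locus. This gave 172 regions of 459616 kept in the genome: 14 at Mymk, 7 at Mymx, 17 at Cdh15, 26 at Cdh2, 59 at Ncam1, 22 at Jam2 and 27 at Jam3. The rule that assigns regions to the genes uses position only.

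The libraries came from ATAC-seq, in which Tn5 transposase cuts and tags accessible DNA, on nuclei isolated from undigested hindlimb muscle. All mice were male and of the inbred strain FVB/NJ, with no transgene or treatment named. Soleus and vastus intermedius are slow-biased muscles, and gastrocnemius and vastus lateralis are fast-biased. Each muscle was sampled in 3 adult mice and in 3 litters at the embryonic stage E18.5, shortly before birth. The 8 groups hold 3 libraries each. The adult stage is given as P56 in the series design, whereas the growth protocol gives mice obtained at 3 to 4 months, and this was not settled here. An E18.5 replicate pooled the left and right muscle of up to 5 male embryos of 1 litter. The labels name the cells only as skeletal muscle, and nuclei of every cell type in the tissue could contribute.

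Skeletal muscle fibres form when mononucleated myoblasts recognise each other, adhere through cadherins and immunoglobulin-family receptors, and merge their membranes. Mymk (myomaker) is a membrane protein needed on fusing myoblasts, and Mymx (myomerger, also called myomixer or minion) is a small membrane peptide that acts with it at the later, pore-forming step. Fusion is widespread in fetal muscle, whereas in the adult it occurs mainly when satellite cells, the resident stem cells, are activated. Adhesion receptors of this group also serve other cells: Cdh2 and Ncam1 in nerve and Schwann cells, and Jam2 and Jam3 at endothelial junctions.

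A list held 115333 to 228137 peaks, with no score, read count or signal, so sequencing depth is unknown and a region is only called or not called in a library. A missing call does not show closed chromatin. In the adult, the mean list was shorter in slow-biased libraries (153684 peaks, SD 33728, n = 6) than in fast-biased ones (179502 peaks, SD 25869, n = 6). Median peak width was 338 to 418 bp in adult lists and 345 to 542 bp in E18.5 lists. Of 6 lists of 8 marker genes each, the myonuclear list (Ttn, Neb and others) stood apart between the stages. Its summed number of called regions was 100 to 201 in adult libraries and 50 to 94 at E18.5. The widest gaps were at Ttn (adult mean 67.5, E18.5 mean 13) and Neb (39.2 against 8.5), followed by Ryr1 (29.9 against 24.8). By gene, 5 had the higher mean in adult libraries, and 3 (Ckm, Acta1 and Tnnt3) ran the other way. The summed range is therefore not a shift shared by every myonuclear gene. The satellite cell list (Pax7, Myf5 and others) gave 44 to 68 in the adult and 51 to 77 at E18.5. The ranges were 31 to 51 and 33 to 68 for Schwann and nerve genes, 50 to 64 and 41 to 79 for endothelial genes, 28 to 48 and 29 to 56 for fibroblast genes, and 24 to 38 and 30 to 56 for immune genes. No marker gene was at 0 in all libraries of a stage. Fewer nuclei of a type and less open chromatin per nucleus cannot be told apart in whole tissue, and the part of cell composition in the stage results was not tested.

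Of the 172 member regions, 121 lay inside a gene body, 36 in the flanks and 15 at an end of the gene (1 kb or less away), and 40 overlapped another annotated gene. The annotation table used here gave no strand and no exons, so exons, introns and UTRs were not told apart. The strand was known for Cdh15 alone, which was the only member in the table of RefSeq promoters. Its promoter (build GRCm38.p6, the assembly of mm10, + strand, chr8:122848124-122848423) is shown because it lay inside a region called in all 24 libraries. The capitals mark E-boxes (CANNTG), the motif bound by myogenic basic helix-loop-helix factors. The sequence is the reference genome's and not that of FVB/NJ.
Cdh15 promoter: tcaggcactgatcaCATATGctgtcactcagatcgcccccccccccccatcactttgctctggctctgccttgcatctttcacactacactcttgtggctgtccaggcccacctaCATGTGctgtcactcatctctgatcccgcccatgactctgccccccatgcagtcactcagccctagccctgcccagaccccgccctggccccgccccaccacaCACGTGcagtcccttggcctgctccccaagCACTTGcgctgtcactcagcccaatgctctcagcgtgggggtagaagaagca

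The window held 4 E-boxes, at bases 15-20 (CATATG), 116-121 (CATGTG), 219-224 (CACGTG) and 249-254 (CACTTG), counted from 1 at its 5′ end, with the gene start after base 250. An E-box was found in 72.3% of 32851 promoters of the same length, so its presence did not mark this promoter. The window held 1 match to the nuclear factor I motif TTGGC (both strands searched, as for every motif here), at bases 232-236, a motif found in 46.7% of promoters. It held no match to CAGCTG, the E-box form favoured by MyoD (16.3% of promoters), to the TEAD motif GGAATG (14.7%) or to the AP-1 motif TGANTCA (7.81%). GC content was 61.3%, against a median of 52.7% over all promoters, and the 7 CpG equalled the median of 7.

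The question put to the calls was which member regions were open at E18.5, when fibres still form, and which in adult muscle. Most regions were shared between the stages: 125 of 172 were called at both, 23 in adult libraries only and 24 at E18.5 only. Shares over all kept regions were not counted for these classes, nor for regions called in all 12 libraries of a stage. Whether the member counts stand out is therefore not known. Calling was often sparse: 52 of the 172 were called in just 2 libraries. Such regions were most of the adult-only and most of the E18.5-only regions, but a minority of the shared ones. Most regions called at a single stage thus rest on 2 calls. The share of such regions over all kept regions was not counted. In all 12 E18.5 libraries 21 regions were called, and in all 12 adult libraries 11 were, which were the 11 called in all 24. These made up 6.40% of the member regions, against 3.98% of all kept regions.

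**Figure D1:**
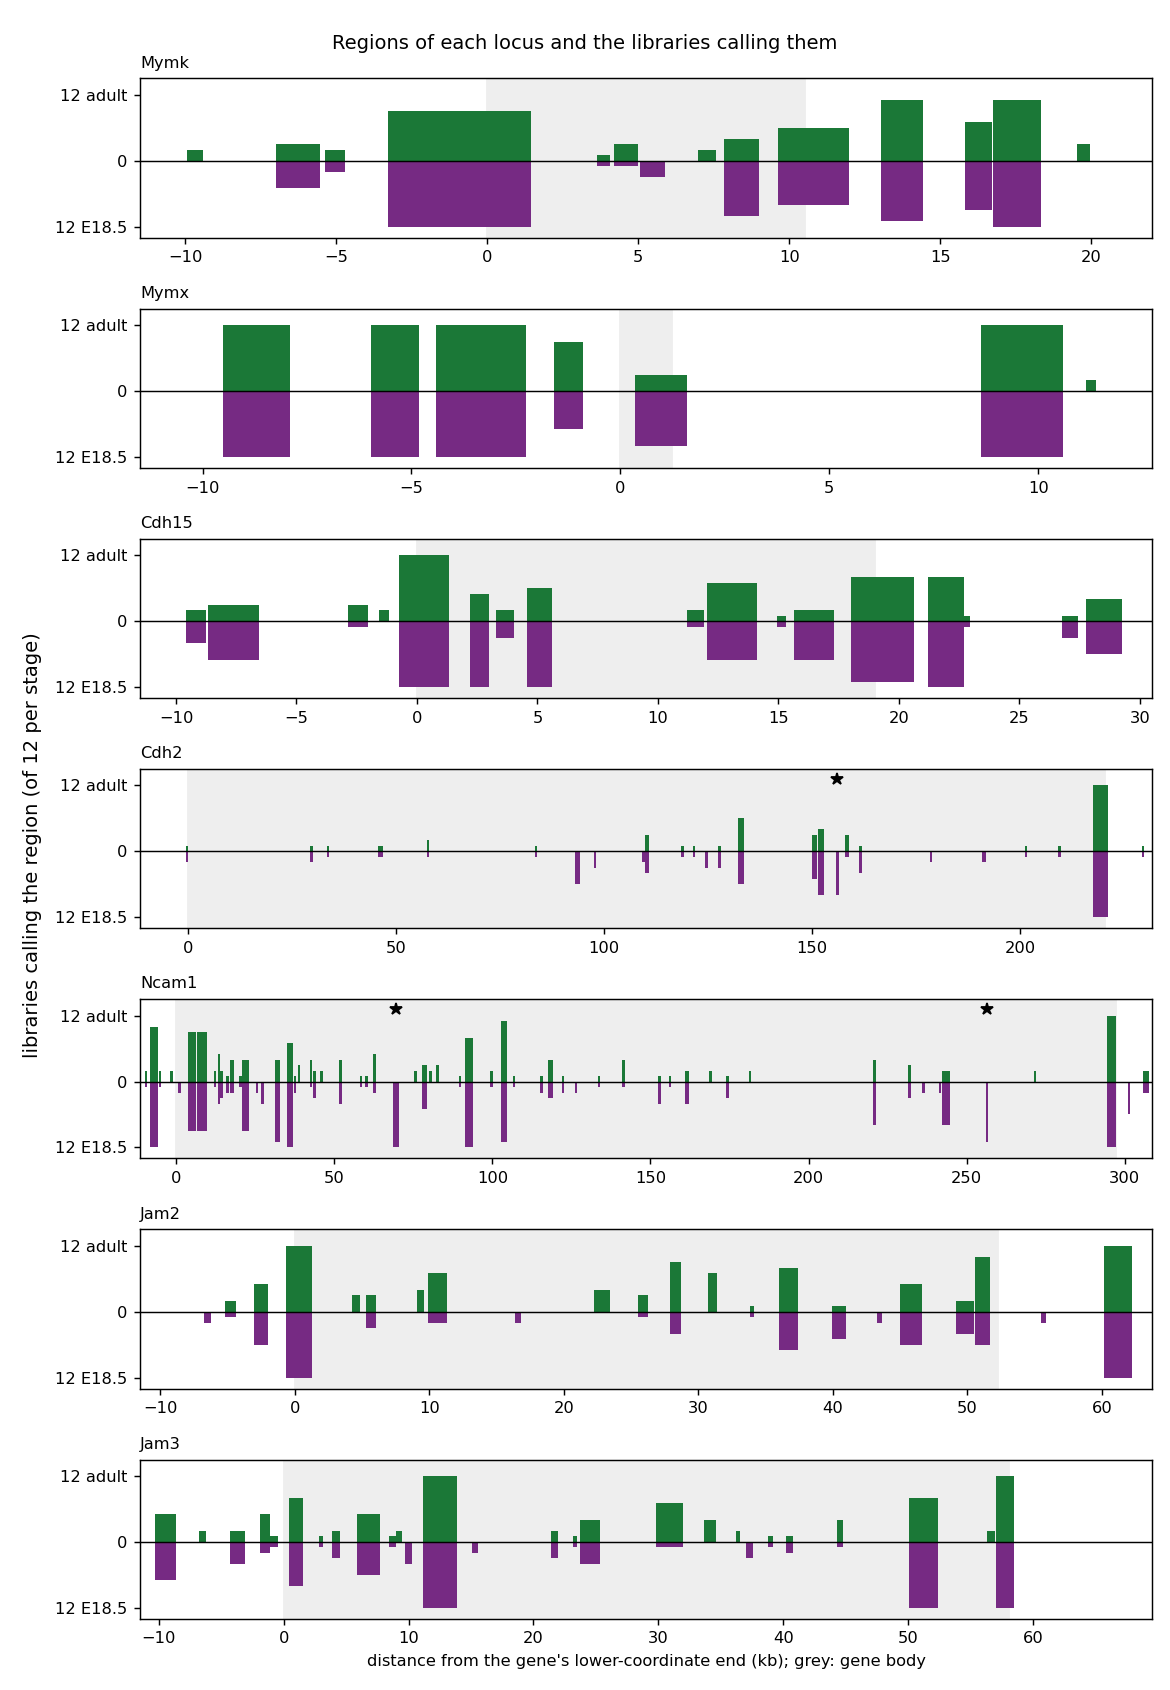
Each bar is a kept region, placed by its distance in kb from the lower-coordinate end of the gene (grey, gene body), with the number of adult libraries calling it upward (green, of 12) and of E18.5 libraries downward (purple, of 12); bars narrower than the line were widened to be visible. Stars mark the 3 regions past the threshold, 2 in Ncam1 and 1 in Cdh2, all called at E18.5 and in no adult library.

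Calling could be tested between stages at 65 of the 172 regions (Fisher's exact test, 12 against 12 libraries, adjusted over all 170267 testable regions of the genome). At E18.5, 3 were called in more libraries, which is 4.62% of those tested against a background of 4.55%. In the adult, 0 were (background 1.55%). At an unadjusted p under 0.05 the counts were 12 at E18.5 (18.46%, background 14.3%) and 2 in the adult (3.08%, background 5.31%). The share of member regions past the threshold was thus near that of the genome, and the results below concern named regions and not the genes as a set. Libraries of 1 animal or litter are not independent, so these p-values are too small, and calls per animal are given beside them.

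Mymk, on chr2:27061636-27072161, had calls at both ends of the gene at both stages. The region over its lower-coordinate end (chr2:27058340-27063074) was called by 9 of the 12 adult libraries and by every E18.5 library. Each adult animal lacked it in 1 of its 4 muscles. Peaks covered 698 ± 174 bp of it in the adult and 1195 ± 291 bp at E18.5 (mean of an animal's or litter's 4 muscles ± SD, n = 3), and the animals and litters overlapped. The region over the other end (chr2:27071249-27073631) was called in 6 adult and 8 E18.5 libraries, with covered lengths of 202 ± 62.4 and 476 ± 220 bp. Inside the gene, chr2:27069467-27070645 was called in 4 adult and 10 E18.5 libraries (exact p = 0.0361, adjusted p = 0.197). Of the adult calls, 0, 2 and 2 came from the 3 animals, and of the E18.5 calls 4, 3 and 3 from the 3 litters. The difference thus had one direction in every animal and litter but did not pass the threshold. No Mymk region was called in all 24 libraries.

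Mymx is a short gene (1236 bp, chr17:45600961-45602196), and 1 kept region overlapped it. This region (chr17:45601304-45602564), which covered the higher-coordinate end, was called in 3 adult and 10 E18.5 libraries (exact p = 0.0123, adjusted p = 0.108). All 3 adult calls came from adult 2, in soleus, gastrocnemius and vastus lateralis, whereas litters 1, 2 and 3 gave 4, 4 and 2. Without adult 2 the region was called in no adult library. The adjusted p (exact test) was 0.03 without adult 2, 0.0351 without litter 3 and 0.0321 with the widest 115333 peaks of each list, but up to 0.462 without another animal or litter. With a cover of 50% of the region required, the difference in the share of libraries calling fell from 58.3 to 16.7 percentage points. The next region (chr17:45599365-45600079) lay 882 bp below the lower end and overlapped the neighbour Slc29a1, a nucleoside transporter gene. It was called in 0 of 3 adult soleus libraries and in 3 of 3 of each other adult muscle. Of the E18.5 libraries, 3 of gastrocnemius, 2 of vastus lateralis and 1 each of soleus and vastus intermedius called it. The 4 regions of the Mymx locus called in all 24 libraries lay in its flanks, 3 of them over Slc29a1.

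Cdh15, on chr8:122848374-122867397, encodes M-cadherin, the cadherin of myoblasts and satellite cells. The region over its start (chr8:122847628-122849702), which holds the promoter printed above, was called in all 24 libraries. Peaks covered 817 ± 30.6 bp of it in the adult and 771 ± 82.7 bp at E18.5, with overlapping animals and litters (exact permutation p = 0.5, n = 3 and 3). Downstream of the start, calls differed between the stages. The region chr8:122850559-122851382, centred 2.60 kb past the start, was called in 5 adult and 12 E18.5 libraries (exact p = 0.00458, adjusted p = 0.0566). The adult calls came 2 from adult 1, 3 from adult 2 and 0 from adult 3. The region chr8:122852939-122853989, centred 5.09 kb past the start, was called in 6 adult and 12 E18.5 libraries (exact p = 0.0137, adjusted p = 0.108). Neither passed the threshold over full lists. Results differed between alternatives. Both passed when only the widest 115333 peaks of each list were used (exact test, adjusted p = 0.00751 for each) and when peaks had to cover 50% of a region (adjusted p = 0.00877 and 0.00201). They also passed with the first 115333 peaks (adjusted p = 0.0157 and 0.0354, exact test). With an animal or litter left out, the adjusted p of the nearer region ran from 0.03, without adult 2, to 0.341, without adult 3, where the difference was 37.5 percentage points. That of the farther region ran from 0.185 to 0.437, so it passed in none of these.

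The second of these Cdh15 regions separated the adult muscles. It was called in 3 of 3 gastrocnemius and 3 of 3 vastus lateralis libraries, and in 0 of 3 soleus and 0 of 3 vastus intermedius libraries. Each adult animal thus had it in its 2 fast-biased muscles and in neither slow-biased one, whereas all 12 E18.5 libraries called it. Over the genome, 0.047% of kept regions showed this adult pattern of 6 of 6 fast-biased against 0 of 6 slow-biased libraries. Of the 172 member regions 1 showed it, 0 showed the reverse in the adult (background 0.00392%), and 0 showed either at E18.5 (0.00479% and 0.00087%). Fisher's exact test gave p = 0.00216, the smallest it can give for 6 against 6, and an adjusted p of 0.445. The adjusted p was 0.361 with labels exchanged within animals, and it ran from 0.361 to 0.588 over the alternatives in which the region could be tested. With a cover of 50% of the region required, the difference (slow minus fast share of adult libraries) shrank from -100 to -33.3 percentage points. The region could not be tested in that setting, so the full separation rests on calls made by an overlap of 1 bp. Adult soleus 2, whose list (211875 peaks) was longer than those of 5 of the 6 fast-biased adult libraries, did not call it. The part of sequencing depth was not tested. The summed calls of both the myonuclear markers (100 to 153 against 162 to 201) and the satellite cell markers (44 to 51 against 52 to 68) were also lower in slow-biased than in fast-biased adult libraries. The other marker lists had overlapping ranges but lower medians in slow-biased libraries too. These were 41.5 against 50 (Schwann and nerve), 56.5 against 59 (endothelial), 33.5 against 38 (fibroblast) and 25 against 34.5 (immune). The lower counts were thus not particular to the muscle lineage lists, and their part in the pattern was not tested.

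**Figure D2:**
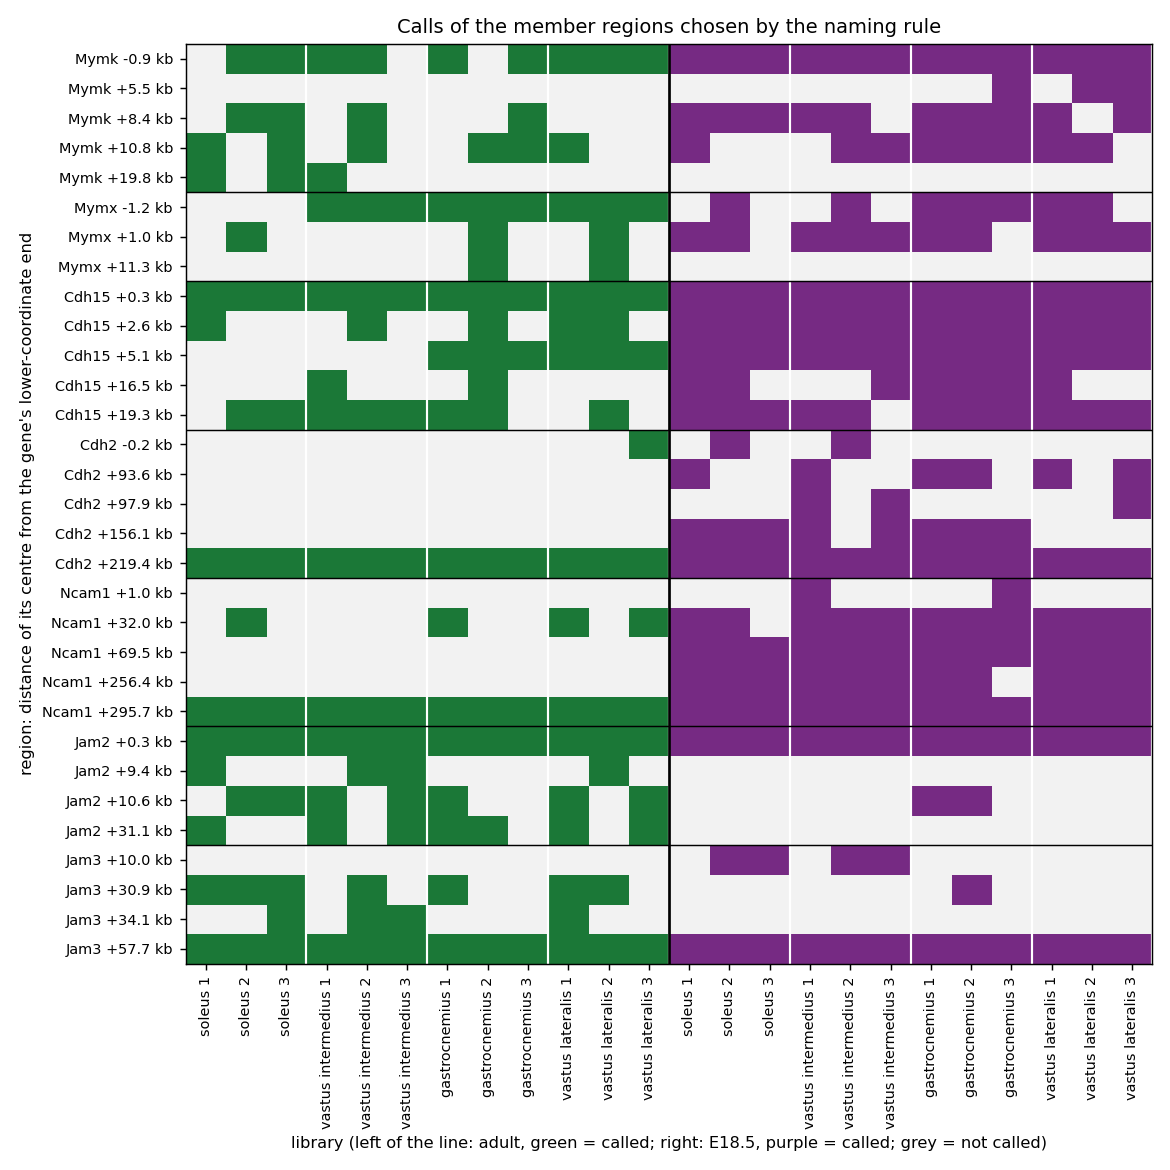
Rows are member regions, labelled by the distance of their centre from the lower-coordinate end of the gene in kb, and columns are the 24 libraries in 8 groups of 3; green is a call in the adult, purple a call at E18.5 and grey no call. The Cdh15 row at +5.1 kb is filled in the 6 fast-biased adult libraries and all 12 at E18.5, and the Ncam1 row at +69.5 kb is filled at E18.5 only.

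Cdh2, on chr18:16588877-16809246, encodes N-cadherin, which is found on myoblasts, in nerve and in the niche of satellite cells. Calls over this long gene were few. The region over its higher-coordinate end (chr18:16806510-16809998) was called in all 24 libraries, and 11 of its 26 regions were called in only 2. The region chr18:16744655-16745368, 63878 bp inside that end, was called by 8 of the 12 E18.5 libraries and by no adult one (exact p = 0.00135, adjusted p = 0.0266). The litters gave 3, 2 and 3 calls of 4. By muscle, soleus and gastrocnemius gave 3 calls each, vastus intermedius gave 2 and vastus lateralis gave 0. The call was lost when most single animals or litters were left out: the adjusted p (Fisher's exact test) was 0.0983, 0.0827 and 0.0914 without adult 1, 2 or 3, 0.118 without litter 1 and 0.0680 without litter 3. It was kept without litter 2 (adjusted p = 0.0349, exact test). It was also lost where peaks had to cover 50% of the region or where lists were shortened to equal length.

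A neighbouring Cdh2 region, chr18:16740383-16741814, had the same E18.5 calls by muscle, with 3 each in soleus and gastrocnemius, 2 in vastus intermedius and 0 in vastus lateralis, but 4 adult libraries called it too. Another, chr18:16738966-16740043, had 3 in soleus, 2 in gastrocnemius and 0 in either vastus muscle, and 3 adult libraries called it. Over all 7 genes, 4 of 172 regions (2.33%) were called in 3 of 3 E18.5 soleus and 0 of 3 E18.5 vastus lateralis libraries, against 0.292% of all kept regions. In the opposite direction 0 were (0.335%). This was the most of 24 such counts, from 12 pairs of muscles within a stage in both directions, which otherwise ran from 0 to 3 with backgrounds of 0.149% to 1.04%. Of these 4, 3 are the Cdh2 regions above, which lie within 10 kb of each other and were singled out after their values were seen. The E18.5 vastus lateralis lists held 149346 to 178191 peaks, and E18.5 soleus 3, with 120387 peaks, called all 3 regions. The part of list length and depth was not tested. A comparison of 3 against 3 libraries cannot give a p below 0.1, so these are counts and not tests. The region chr18:16681889-16683116 was called in 0 adult and 6 E18.5 libraries (exact p = 0.0137, adjusted p = 0.108), 4 of them from litter 1.

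Ncam1, on chr9:49502129-49799393, encodes the neural cell adhesion molecule, which developing, regenerating and denervated muscle carries over its surface and innervated adult fibres mainly at the synapse. It held the clearest stage difference among the members. The region chr9:49570751-49572606, inside the gene and 68622 bp from its lower-coordinate end, was called in 12 of 12 E18.5 libraries and 0 of 12 adult libraries (exact p = 7.4e-07, adjusted p = 0.000312). Peaks covered 1005 to 1545 bp of its 1856 bp in the E18.5 libraries (median 1409 bp), and the litters averaged 1350, 1348 and 1420 bp. All 4 muscles of all 3 litters therefore had peaks over much of the region, and no muscle of any adult animal had any there. Over the genome, 0.0646% of kept regions were called in every E18.5 and no adult library, and 0.0231% the other way. The call held in all 11 alternatives, with adjusted p from 0.000139 to 0.00397. Adult lists of up to 219114 peaks lacked the region, and E18.5 lists down to 120387 peaks had it. List length is not sequencing depth, and the part of depth was not tested.

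A further Ncam1 region (chr9:49758111-49758975), 40418 bp inside the higher-coordinate end, was called by 11 of the 12 E18.5 libraries and by no adult one (exact p = 9.6e-06, adjusted p = 0.00113). Gastrocnemius of litter 3 was the E18.5 library without it. Peaks covered fewer base pairs of this shorter region, with litter means of 629, 480 and 289 bp. When peaks had to cover 50% of the region, its adjusted p was 0.0541. The region chr9:49533237-49534931 was called in 4 adult and 11 E18.5 libraries (exact p = 0.00942, adjusted p = 0.1), with adult calls of 2, 1 and 1 and E18.5 calls of 4, 4 and 3 by animal and litter. It overlapped the annotated gene Gm11149, as did 1 other Ncam1 region with an unadjusted p under 0.05, chr9:49537014-49539204 (7 adult and 12 E18.5 libraries, exact p = 0.0373, adjusted p = 0.197). The higher-coordinate end region of Ncam1 (chr9:49796439-49799209) was called in all 24 libraries, and its covered length was 1878 ± 169 bp in the adult and 2297 ± 170 bp at E18.5. Every litter was above every adult animal there (exact permutation p = 0.1, the smallest for 3 against 3), as at 36.8% of all regions called in all 24 libraries. No Ncam1 region passed the threshold toward the adult. Of its 59 regions, 9 were called in adult libraries only and 9 at E18.5 only. The Schwann and nerve markers, of cells that also carry Ncam1, had 2 regions past the threshold toward E18.5 and 1 toward the adult, of 66 tested. The backgrounds were 4.55% and 1.55%, and the part of these cells was not tested.

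Jam2, on chr16:84774123-84826380, and Jam3, on chr9:27097384-27155421, encode junctional adhesion molecules that bind each other across adjoining cells and that zebrafish myoblasts need for fusion. They were the only members with a region at an unadjusted p under 0.05 toward the adult, 1 in each. The Jam2 region chr16:84804856-84805548, inside the gene, was called in 7 adult and 0 E18.5 libraries (exact p = 0.00458, adjusted p = 0.0566). Adult 1 gave 4 calls, adult 2 gave 1 and adult 3 gave 2, and leaving out an animal or litter moved the adjusted p (exact test) from 0.03, without adult 2, to 0.365, without adult 1. It was 0.0354 with the first 115333 peaks of each list. The difference in the share of libraries calling fell from 58.3 to 33.3 percentage points with the widest peaks and to 16.7 with a cover of 50%, where too few calls were left to test. Another Jam2 region (chr16:84783256-84783752) was called in 4 adult and 0 E18.5 libraries, too few calls to test. The Jam3 region chr9:27127153-27129340 was called in 7 adult libraries and 1 at E18.5 (exact p = 0.0272, adjusted p = 0.190), with 3, 3 and 1 calls by adult animal. Both genes had an end region called in all 24 libraries: chr16:84773506-84775392 at the lower-coordinate end of Jam2 and chr9:27154394-27155861 at the higher-coordinate end of Jam3. Their covered lengths were 1303 ± 185 against 1445 ± 81.6 bp (Jam2) and 821 ± 99.7 against 868 ± 60.5 bp (Jam3), adult against E18.5, with overlapping animals and litters. The loci of 8 markers of endothelial cells, which also use Jam2 and Jam3, had 0 of 63 tested regions past the threshold in either direction. The backgrounds were 4.55% toward E18.5 and 1.55% toward the adult, and the part of these cells was not tested.

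The Jam3 region chr9:27147437-27149760, noticed after its values were seen, was called in all 12 E18.5 libraries. In the adult it was called in 3 of 3 soleus, 3 of 3 vastus intermedius, 2 of 3 gastrocnemius and 0 of 3 vastus lateralis libraries. With 6 slow-biased and 2 fast-biased adult calls it ran opposite to the Cdh15 region, and it overlapped the annotated gene LOC115487155.

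**Figure D3:**
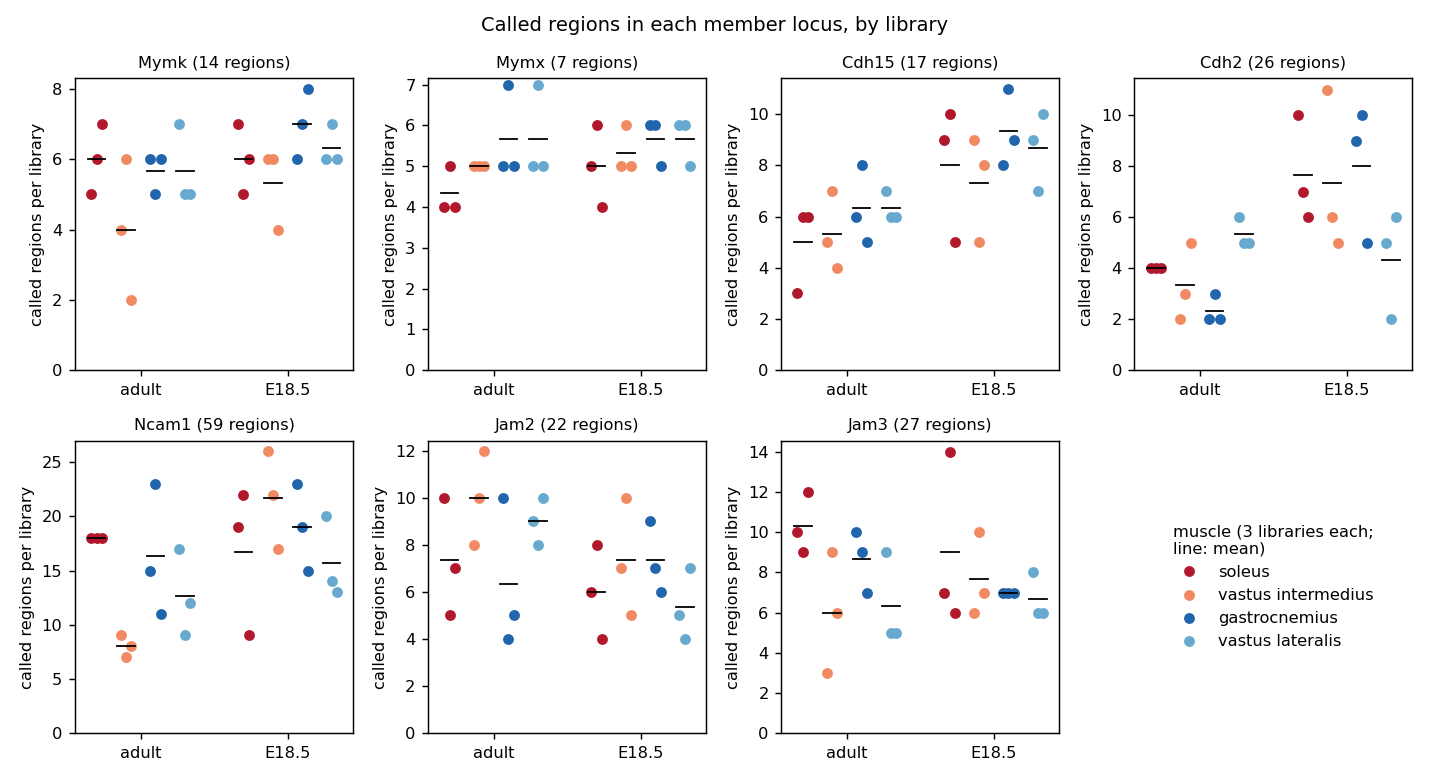
Points are the number of called regions of each locus in each of the 24 libraries, coloured by muscle, with adult left and E18.5 right and a line at the mean of 3 libraries. Cdh15 ran from 3 to 8 in the adult and from 5 to 11 at E18.5, whereas Mymx ran from 4 to 7 and from 4 to 6.

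Counted over whole loci, 3 members had more called regions in every litter than in every adult animal. A library called 5.75 ± 0.866 Cdh15 regions in the adult and 8.33 ± 0.382 at E18.5 (mean of 4 muscles ± SD, n = 3 animals or litters). The animals averaged 5.25, 6.75 and 5.25, and the litters 8.75, 8.25 and 8. For Cdh2 the means were 3.75 ± 0.250 and 6.83 ± 1.70, with litters at 8.75, 6.25 and 5.50. For Mymk they were 5.33 ± 0.289 and 6.17 ± 0.144, a difference of under 1 region. The exact permutation p was 0.1 for each of the 3, the smallest that 3 against 3 allows. The count of 3 members became 1 when all merged regions were used, including those called in 1 library, where the Cdh2 difference shrank from 3.08 to 0.75 regions. Over the genome, 13.9% of loci had every litter above every adult animal and 5.19% the reverse, and the median locus differed by 0.25 regions toward E18.5.

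At the other 4 loci the animals and litters overlapped. Ncam1 had 13.8 ± 1.32 called regions in the adult and 18.2 ± 4.34 at E18.5 (exact permutation p = 0.3, n = 3 and 3), and litter 3, at 13.5, fell between the adult animals. Jam2 had 8.17 ± 1.28 and 6.5 ± 0.901 (p = 0.3, exact), Jam3 7.83 ± 0.289 and 7.58 ± 1.46 (p = 0.9, exact), and Mymx 5.17 ± 0.722 and 5.42 ± 0.629 (p = 1, exact). The covered length separated the stages at 4 loci, Ncam1 included, as at 29.9% of all loci, and at 0 members the adult was above in every animal (6.31%). It was 7824 ± 791 bp in the adult and 13769 ± 4265 bp at E18.5 for Ncam1, 2747 ± 410 and 4819 ± 372 bp for Cdh15, 3266 ± 185 and 4901 ± 945 bp for Cdh2, and 2904 ± 517 and 4519 ± 777 bp for Mymk (exact permutation p = 0.1 for each). Over the 18301 regions of the genome called in all 24 libraries, covered length was also larger at E18.5, by 125 bp in the median.

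Per length, the loci differed widely. Mymx had 2.43 called regions per 10 kb of locus in the adult and 2.55 at E18.5, Mymk 1.75 and 2.02, and Cdh15 1.47 and 2.14. Jam2 (1.13 and 0.900) and Jam3 (1.00 and 0.972) were intermediate, and the long genes Ncam1 (0.433 and 0.575) and Cdh2 (0.156 and 0.284) were the most sparsely called. Mymx and Mymk are short, so most of their loci is flank.

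Within each muscle, regions called in 3 of 3 libraries of a stage and 0 of 3 of the other were counted. In soleus there were 5 toward E18.5 (2.91% of 172, background 1.55%) and 3 toward the adult (1.74%, background 0.560%). In vastus intermedius there were 7 (4.07%, background 1.92%) and 0 (background 0.672%). In gastrocnemius there were 3 (1.74%, background 2.12%) and 0 (background 0.836%), and in vastus lateralis 3 (1.74%, background 1.16%) and 1 (0.581%, background 1.23%). The Ncam1 region at chr9:49570751-49572606 was in the E18.5 count of all 4 muscles. The Cdh15 region at chr8:122852939-122853989 was in that of both slow-biased muscles, and the Mymx gene region in that of vastus intermedius.

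Between slow-biased and fast-biased muscles no member locus passed the test. In the adult the exact permutation p over 6 against 6 libraries ran from 0.152 (Mymx) to 1 (Cdh2), and at E18.5 from 0.175 (Mymk) to 0.881 (Jam2). Adjusted p was 0.898 or higher at every member locus. In the adult, Mymx had 4.67 ± 0.516 called regions in the slow-biased muscles against 5.67 ± 1.03 in the others (mean ± SD over libraries, n = 6), and Cdh15 had 5.17 ± 1.47 and 6.33 ± 1.03. No locus of the genome passed the adjusted threshold. Unadjusted, 0.308% of loci were higher in slow-biased and 6.82% in fast-biased adult muscle, and at E18.5 the shares were 0.253% and 0.871%. Of single regions, 17 member regions were testable in the adult and 18 at E18.5. Those past an unadjusted p of 0.05 were 1 toward fast-biased adult muscle, the Cdh15 region above (background 2.88%), 0 toward slow-biased adult muscle (0.472%), and 0 at E18.5 in either direction (0.234% and 0.591%). None passed adjustment, by Fisher's exact test or by the exact test within animals and litters. The smallest p these tests can give is 0.00216 and 0.00926, respectively. Over the 48133 adult regions testable by Fisher's exact test, adjustment could be passed only if many regions reached that smallest p, and none did pass. The same limit held for the loci. These results therefore do not show that slow-biased and fast-biased muscles were alike.

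The muscles did not sort by fibre bias at Ncam1. Adult soleus libraries called 18, 18 and 18 regions, vastus intermedius 9, 7 and 8, gastrocnemius 15, 23 and 11, and vastus lateralis 17, 9 and 12. The means were 18, 8, 16.3 and 12.7, so the slow-biased pair held the highest and the lowest mean and did not overlap, although the highest library was of gastrocnemius. At E18.5 this was not seen, with 19, 22 and 9 regions in soleus and 26, 22 and 17 in vastus intermedius. Adult vastus intermedius had the shortest lists (115333 to 145382 peaks, against 149426 to 211875 in soleus), and the part of list length was not tested for this locus. Adult Jam3 ran the same way, with 10, 9 and 12 regions in soleus and 3, 9 and 6 in vastus intermedius, while Jam2 did not (10, 5 and 7 against 8, 10 and 12). Cdh2 in the adult was lowest in gastrocnemius (2, 3 and 2) and highest in vastus lateralis (6, 5 and 5), both fast-biased.

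**Figure D4:**
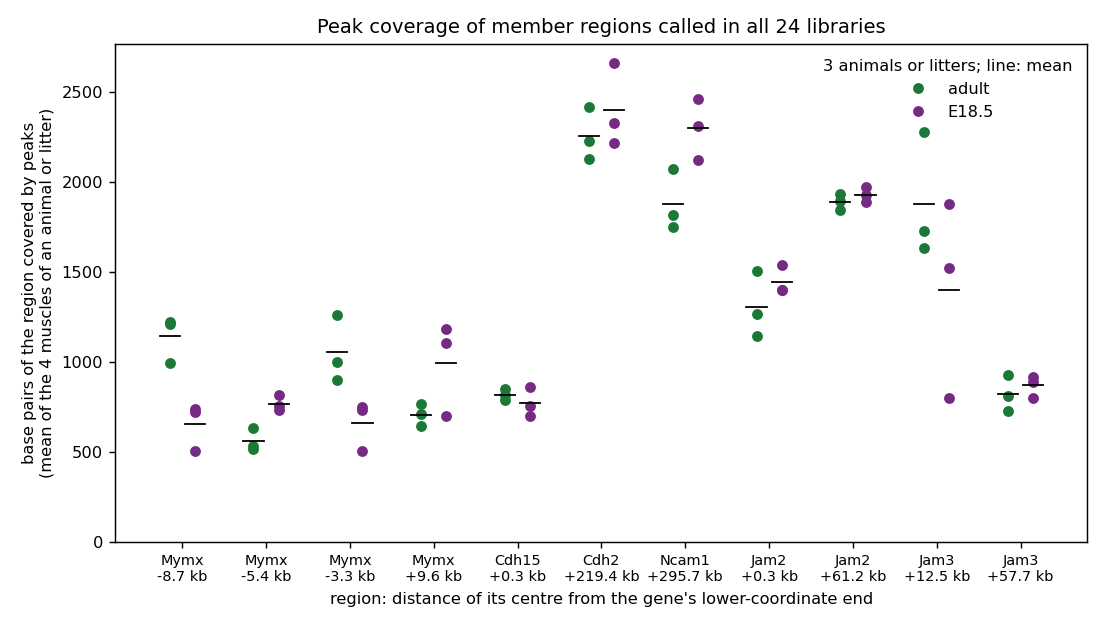
Points are the base pairs covered by peaks in the 11 member regions called in all 24 libraries, as the mean of the 4 muscles of each adult animal (green) or litter (purple), with a line at the mean of 3; regions are labelled by distance from the lower-coordinate end of the gene in kb. The Mymx flank regions at -8.7 and -3.3 kb lie higher in every adult animal, and the Ncam1 region at +295.7 kb lies higher in every litter.

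The regions called everywhere still differed in covered length. At the 5 gene ends called in all 24 libraries (Cdh15, Cdh2, Ncam1, Jam2 and Jam3) the ratio of E18.5 to adult covered length ran from 0.943 at Cdh15 to 1.22 at Ncam1. The largest ratios in either direction were in the Mymx flank, with the lowest over Slc29a1. The region chr17:45591448-45593061 had 1141 ± 127 bp covered in the adult and 653 ± 131 bp at E18.5, and chr17:45596553-45598696 had 1052 ± 189 and 660 ± 135 bp. Every adult animal was above every litter at both (exact permutation p = 0.1 for each, n = 3 and 3), as at 5.2% of all regions called in all 24 libraries. Between them, chr17:45594985-45596146 went the other way (559 ± 60.9 and 766 ± 43.3 bp). The flank region without an overlapping gene, chr17:45609592-45611559, overlapped between the stages (706 ± 63.2 and 993 ± 257 bp).

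The other genes of the process were taken as 4 lists: 26 adhesion receptors, 23 junction and cytoskeleton genes, 8 membrane remodelling genes and 10 signalling genes. Together these 67 genes had 3050 regions, of which 1177 could be tested. Of those, 47 were called in more libraries at E18.5 (3.99%, background 4.55%) and 19 in the adult (1.61%, background 1.55%). The shares were near those of the genome in both directions. The median locus of these genes differed by 0.833 regions toward E18.5, against 0.25 over all loci. By list, the counts at E18.5 and in the adult were 30 and 10 of 610 tested regions for adhesion receptors, and 14 and 2 of 355 for junction and cytoskeleton. They were 2 and 2 of 99 for membrane remodelling, and 1 and 5 of 113 for signalling. No list's count was tested against the background.

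**Figure D5:**
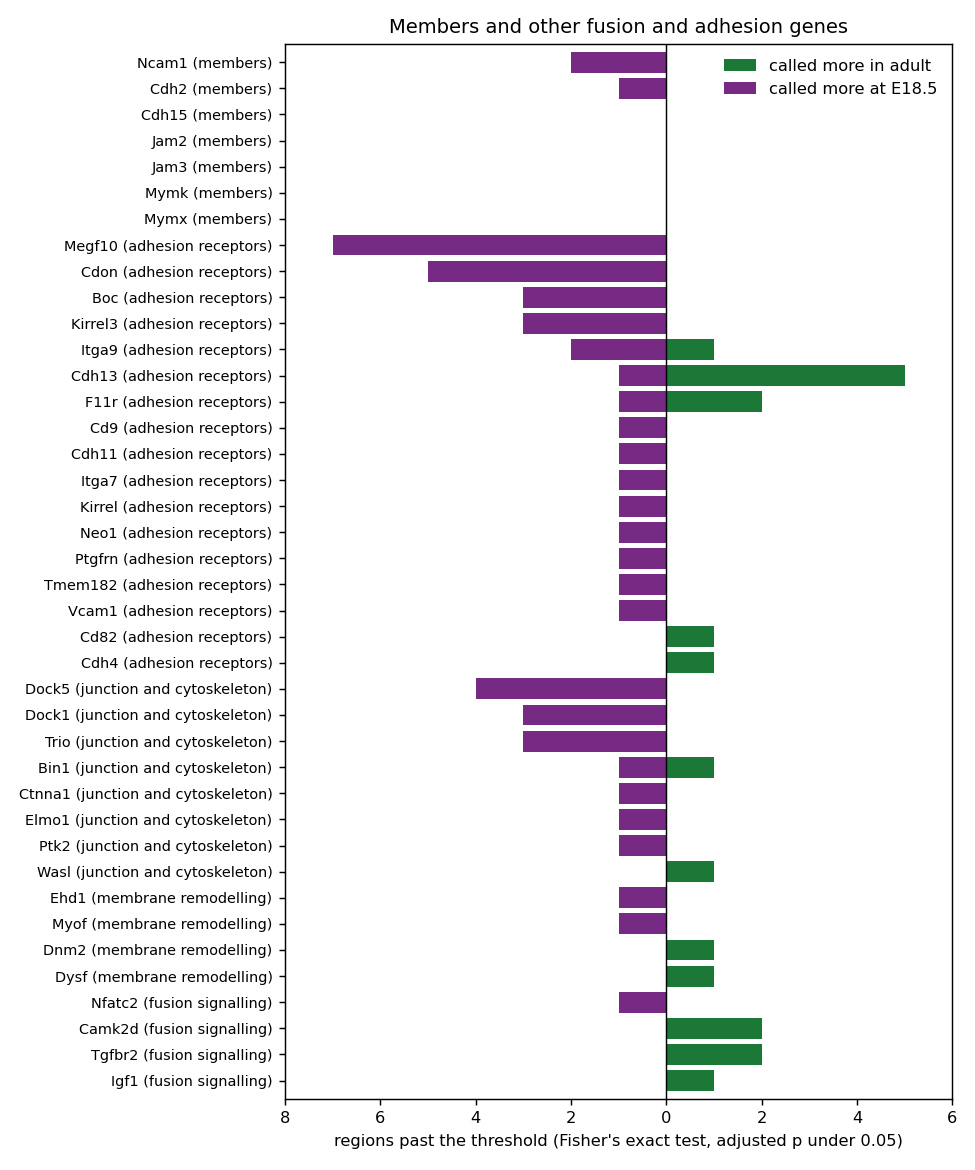
Bars give, for each member and each listed gene with a region past the threshold, the number of regions called in more adult libraries (green, right) or more E18.5 libraries (purple, left). Megf10 has 7 and Cdon 5 at E18.5, Cdh13 has 5 in the adult, and 5 of the 7 members have none.

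These genes were named for the number of regions past the threshold, which favours loci with many regions, so each count is given of the regions tested at the locus. Among the adhesion receptors, Megf10, a receptor of satellite cells, had 7 of 22 tested regions past the threshold toward E18.5 and 0 toward the adult (backgrounds 4.55% and 1.55%), and its locus had 9 ± 1.95 called regions in the adult and 18.2 ± 4.91 at E18.5. Cdon and Boc, co-receptors that signal from cadherin contacts in myoblasts and also bind hedgehog ligands, had 5 of 14 and 3 of 21. Their loci had 6.75 ± 1.32 and 10.8 ± 0.250 called regions in the adult against 13.9 ± 1.88 and 19 ± 1.5 at E18.5. Kirrel3, a relative of the fly fusion receptors, had 3 of 46, little above the background. Of the exchange factors for Rac, the small GTPase that drives actin remodelling at the contact site, Dock5 had 4 of 16. Dock1 had 3 of 56 and Trio 3 of 64, both near the background. Toward the adult, Cdh13 (T-cadherin, which lacks a cytoplasmic domain) had 5 of 120 and 1 toward E18.5. F11r (JAM-A, a relative of Jam2 and Jam3) had 2 of 8 toward the adult and 1 toward E18.5, and Tgfbr2 and Camk2d had 2 of 24 and 2 of 25 toward the adult. No gene's count was tested against the background. Toward the adult the myonuclear marker list had 46 regions of 191 past the threshold, 33 of them at Ttn, and 4 toward E18.5. The satellite cell list had 1 and 6 of 66, and the part of these in the counts was not tested.

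Likeness to other genes was taken as Pearson's r over the 24 libraries of the locus count divided by all kept regions a library called. The points share animals, litters and stage. Of 26723 to 26799 genes compared per member, the closest were Mrps24 and Poc1a for Mymk (r = 0.70 and 0.70), Mmp11 and Dop1b for Mymx (0.78 and 0.78), and Cxcl2 and Calcoco1 for Cdh15 (0.81 and 0.76). They were Pros1 and Ptma for Cdh2 (0.82 and 0.81), Gm46788 and Mctp2 for Ncam1 (0.82 and 0.75), Ets1 and Ube2h for Jam2 (0.85 and 0.83), and Pld5 and Gm42379 for Jam3 (0.75 and 0.73). No member was among the closest genes of another.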

How the data were processed

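The members and gene lists were chosen with earlier results of these data known. The authors deposited 1 list of peak positions per library (mm10, chromosome, start and end), per the file headers and values, with no score, count or signal. Lists were made per library. Per the submitters' processing notes, MACS2 2.1.1, Bowtie2 2.4.4, bedtools 2.25.0, Picard, FastQC 0.11.5, SAMtools 1.14.0 and Trimmomatic 0.39.0 were among the tools. Peak thresholds and any read shift for the transposase were not given in the sources used. No pair of lists was identical.

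Peaks overlapping or touching were merged into 930761 regions, of which 459616 had calls from 2 or more libraries and were kept. An overlap of 1 bp with a peak made a call. Gene positions came from RefSeq (GRCm38.p6, 34610 genes). Calls per region were compared by Fisher's exact test (two-sided) and counts per locus by exact permutation (two-sided), with Benjamini-Hochberg adjustment over all testable regions or all 32823 loci and a threshold of 0.05. A region was testable when its total number of calls could reach p 0.05. The 4 muscles of a mouse or litter share that animal or litter per the labels, so slow-biased and fast-biased muscles are paired, and the test within animals was an alternative. Adult and litter numbers do not pair. Regions named were those at gene ends, the 3 with the smallest stage p per member and those with a slow against fast p under 0.05; others are named as chosen after their values were seen or by their counts. Analysis used Python 3.11.15, numpy 2.4.6, scipy 1.17.1 and pandas 2.3.3, with the tests checked on simulated data.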

Additional observations from a re-analysis of the deposited data

How the results depend on the processing

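Alternatives changed the overlap that makes a call, the number of libraries for a kept region, the flank, the list length (widest peaks, or, chosen after seeing the data, the first peaks in file order) and the animals used. The count of member regions higher at E18.5 was 3, and became 5 with 50% cover, 8 with the widest peaks and 7 with the first peaks. The count higher in the adult was 0, and became 1 with 50% cover and 1 with the first peaks. Leaving out each animal or litter gave 2 to 4 and 0 to 1, the 1 being Jam2 without adult 2. The count of loci with every litter above every adult animal was 3, became 1 with all merged regions and 2 with 50% cover, with 50 kb flanks, with the widest peaks and per 10000 regions, and was 4 with the first peaks and 3 to 4 leaving out animals. The cause was not tested.

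Under the replicate block 0 regions and 0 loci passed the slow against fast test at either stage, so it changed no call. No locus passed the slow against fast test under any alternative, but the sign of small differences (slow minus fast, called regions) turned. In the adult these were 0.167 (Mymk), 0.5 (Cdh2), 0.333 (Ncam1) and -0.667 (Jam3) with 50% cover, 0.333 (Cdh2) and 0.167 (Ncam1) with the widest or the first peaks, 0.25 (Cdh2) without adult 1 and -0.75 (Jam3) without adult 3. Per 10000 regions the library called they were 0.0064 (Mymk), 0.037 (Cdh2) and 0.041 (Ncam1). At E18.5 they were 1 (Mymk, 50% cover), 0.167 (Mymk, widest peaks), 1 (Mymx, 50 kb flanks), -0.667 (Jam2, first peaks), and -0.75 for both Jam2 and Jam3 without litter 2 (up to 1.75 and 2.5 without another litter). The slow against fast differences whose sign turned are therefore below what these lists resolve. Among those that kept their sign in every alternative were Mymx and Jam2 in the adult and Cdh15 and Cdh2 at E18.5, none of which passed. Without scores or reads the depth behind a missing call is unknown.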
